A study of Mus musculus with 15 samples.

Results

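The regions described here are 794 windows of 3000 bp that held little H3K4Me1 and H3K27Ac in uninduced pre-B cells and were acetylated within 3 h of C/EBPα activation. The mm9 genome, chromosomes 1 to 19 and X, was tiled into 879674 windows, of which 832530 held a tag in at least 1 library. The level F of a window is its number of distinct tag positions divided by the library's mean over those 832530 windows, so that F of 1 is the mean window. Members were chosen by F below 2 for H3K4Me1 and below 1.5 for H3K27Ac at 0 h, and F of at least 3 for H3K27Ac at 3 h and at 48 h. The limits at 0 h were met by 742048 windows, 10586 of these reached 3 for H3K27Ac at 48 h, and the 794 members were 7.50% of those. The H3K4Me1 values at 0 h and the H3K27Ac values at 0, 3 and 48 h therefore chose the members and are given only as a description. Unmarked is meant relative to these limits: at 0 h the members had a median F of 0.657 for H3K27Ac and 1.17 for H3K4Me1, where the median of all windows was 0.219 and 0.352.

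C10 cells, the only line used here, are HAFTL mouse pre-B cells that express C/EBPα fused to the hormone-binding domain of the estrogen receptor, with a GFP tag (C/EBPαER-GFP). All groups share this transgene. The cells were induced with β-estradiol, at 100 nM by the sample labels, together with IL-3 and CSF-1 (10 nM each), and the control treatment was 0.1% ethanol, the solvent. H3K27Ac, H3K4Me1 and H3K27Me3 were each measured by ChIP-seq at 0, 3, 12, 24 and 48 h, with 1 library for each mark and time, so there is no replicate error against which a change over time could be judged and no test was possible. A bulk library cannot tell apart a change in every cell from a change in a fraction of the cells.

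Enhancers are DNA segments away from gene starts that raise transcription of a gene when transcription factors bind them. H3K4Me1 marks enhancers whether or not they are in use, H3K27Ac marks enhancers and promoters in use, and H3K27Me3 is laid down by Polycomb repressor complexes at silent genes. The H3 tail cannot be acetylated and methylated on the same lysine 27. C/EBPα is a transcription factor of the basic leucine zipper family that is required for granulocyte and macrophage precursors, and its forced expression turns pre-B cells into macrophage-like cells.

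The depth was 10.91 to 31.54 M distinct positions per library, with a mean window of 13.1 to 37.9 tags. Reaching the limit of 3 took 64 tags at 3 h and 60 tags at 48 h. The H3K27Ac libraries of 0 and 3 h stood apart from the others at the immunoglobulin heavy chain locus: they held 523 and 438 distinct tags in the 90 kb of chr12:114685001-114775000, and the other 13 libraries held 23 together. Both libraries enter the rule, so no member can be named without them. The H3K27Me3 library of 0 h held 4 of the 23, at a mean of 37.9 tags per window. The difference is therefore one of coverage and not of acetylation alone. The files do not say whether the H3K27Ac libraries of 0 and 3 h came from the same stock of cells as the other 13. Comparisons cross this difference where H3K27Ac at 12, 24 or 48 h is set against 0 or 3 h, at members and at gene starts. So do those that set H3K27Ac of 0 or 3 h beside H3K4Me1 or H3K27Me3. The part of this difference in the results was not tested. The levels of H3K4Me1 and H3K27Me3 at the members use other libraries. The labelled cell types were checked at gene starts. H3K27Ac in the 3000 bp around the start of 8 pre-B genes had a median F of 68.4 at 0 h and 24.6 at 48 h and was higher at 48 h at 0 of 8. At 8 macrophage genes it was 2.08 at 0 h and 25.9 at 48 h and higher at 7 of 8, the exception being Fcgr3 with 2.41 and 1.12. Cybb, which encodes an oxidase subunit of phagocytes, stayed low, at 0.0547 and 0.660. Tlr4 was already high at 0 h, at 46.8, and at 62.4 at 48 h.

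A set of 10 members is shown first as sequence, since of the 10 motifs searched C/EBP letters were the one whose share in members stood farthest above that in all windows. Of the strongest windows of the 10 loci with the highest H3K27Ac at 3 h, 5 held a match to TTGCNCAA, the core letters that C/EBP dimers bind, searched on both strands. The share was 38.4% over all members and 25.1% over all windows. The match nearest the mean position of the window's 3 h H3K27Ac tags is printed in capitals with 60 bases on either side (mm9, plus strand). The remaining 5 windows, near Runx1, Dhx8, Cep192, Fabp12 and Dhrs3, held no such letters within their 3000 bp, although an adjacent member window of the Runx1 locus did.
Mmp27 window, chr9:7570654-7570781: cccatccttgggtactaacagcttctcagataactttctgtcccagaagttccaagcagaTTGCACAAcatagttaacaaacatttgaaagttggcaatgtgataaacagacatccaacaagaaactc
Vcan window, chr13:89905699-89905826: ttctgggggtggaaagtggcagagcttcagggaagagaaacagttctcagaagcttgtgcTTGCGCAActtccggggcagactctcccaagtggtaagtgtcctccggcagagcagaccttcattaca
Rad51l1 window, chr12:80457319-80457446: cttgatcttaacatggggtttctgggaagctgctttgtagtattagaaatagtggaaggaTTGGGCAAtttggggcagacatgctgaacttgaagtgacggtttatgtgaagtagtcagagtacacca
Vmp1 window, chr11:86417392-86417519: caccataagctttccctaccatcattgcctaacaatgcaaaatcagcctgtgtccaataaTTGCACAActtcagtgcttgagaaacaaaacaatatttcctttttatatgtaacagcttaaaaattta
Nsmce2 window, chr15:59313055-59313182: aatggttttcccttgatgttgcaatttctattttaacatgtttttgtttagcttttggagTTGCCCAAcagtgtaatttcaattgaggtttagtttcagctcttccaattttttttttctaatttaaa
The Vcan match lay 39 bp and the Mmp27 match 86 bp from the mean tag position, against 602 bp for Rad51l1, 653 bp for Vmp1 and 988 bp for Nsmce2. The Mmp27 match is intergenic, 679 bp from the Mmp27 start. The Vcan match, TTGCGCAA, reads the same on both strands and lies in an intron of Gm4117, a gene model, 23645 bp from the Vcan start. The other 3 are intronic, in Rad51l1, Vmp1 and Nsmce2.

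A further group of members is named because their nearest protein-coding start belongs to a gene list described below. From these, the 5 whose match lay within 300 bp of the mean tag position are shown as examples, and their number is not read as a result.
Tlr2 window, chr3:83689304-83689431: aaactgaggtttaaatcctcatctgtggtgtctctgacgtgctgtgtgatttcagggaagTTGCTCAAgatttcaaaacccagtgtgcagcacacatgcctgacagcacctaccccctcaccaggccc
Il13ra1 window, chrX:33624981-33625108: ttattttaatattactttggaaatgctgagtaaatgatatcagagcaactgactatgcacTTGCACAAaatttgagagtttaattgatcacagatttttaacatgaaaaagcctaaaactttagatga
Il15 window, chr8:84907453-84907580: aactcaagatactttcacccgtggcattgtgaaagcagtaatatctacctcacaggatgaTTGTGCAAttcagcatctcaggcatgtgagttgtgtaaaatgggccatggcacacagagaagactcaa
Jun window, chr4:94882015-94882142: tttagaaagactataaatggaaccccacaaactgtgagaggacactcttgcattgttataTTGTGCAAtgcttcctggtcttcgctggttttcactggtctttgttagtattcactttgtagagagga
Zeb2 window, chr2:46100332-46100459: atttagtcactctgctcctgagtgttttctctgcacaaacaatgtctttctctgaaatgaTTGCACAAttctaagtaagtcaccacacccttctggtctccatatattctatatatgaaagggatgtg
The Tlr2 match lay 55 bp, the Il13ra1 match 56 bp, the Il15 match 216 bp, the Jun match 229 bp and the Zeb2 match 255 bp from the mean tag position. None of the 10 printed segments touches an annotated exon. The Il15 segment is intronic, and the other 4 of this group are intergenic. The nearest start can be far away: the Zeb2 match lies 1127480 bp from it and the Tlr2 match 43678 bp, and nothing here links a window to the gene that names it.

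Over all members, 305 of 794 windows (38.4%, exact binomial 95% interval 35.0 to 41.9%) held the C/EBP letters. The share was 31.3% (29.5 to 33.2%) in 2441 windows with the same limits at 0 h that were below 3 at 3 h and reached 3 at 12 h and 48 h. It was 27.2% (26.2 to 28.3%) in 7351 windows that were below 3 at 3 and 12 h and reached 3 at 48 h, and 25.1% in all windows. The share thus fell in the order in which acetylation was reached, and the intervals of the 3 sets did not overlap. The intervals cover counting error only, and neighbouring windows share a locus, so they are narrower than independent loci would give. With H3K27Ac of at least 4 at 3 h, 42.7% of members held the letters.

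**Figure D1:**
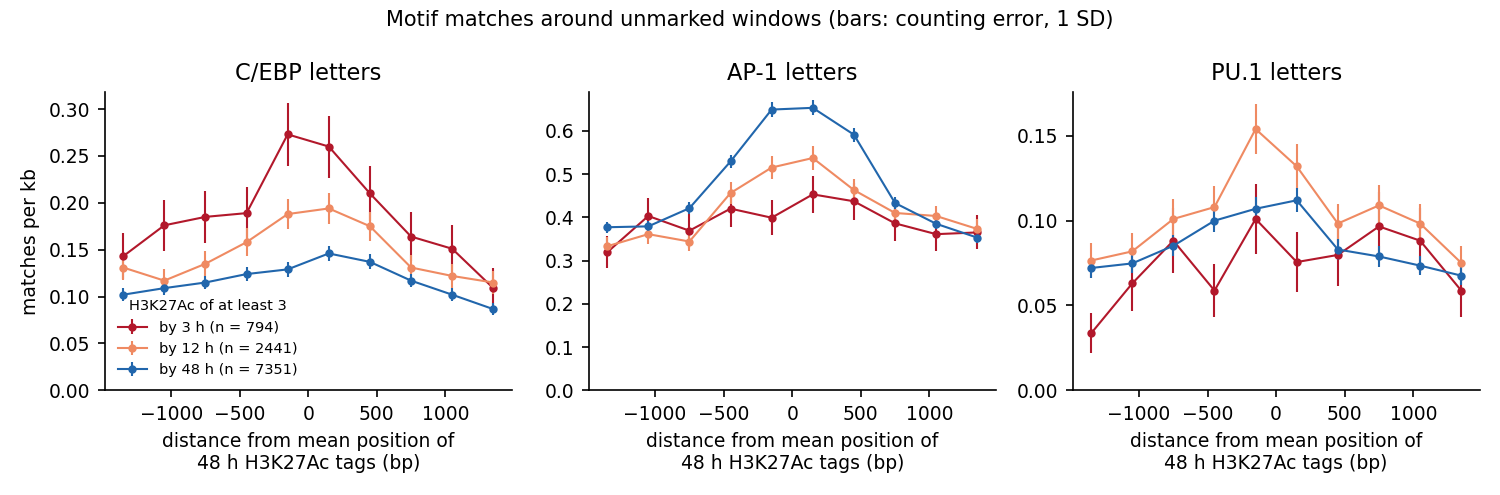
Matches per kb to C/EBP, AP-1 and PU.1 letters in 300 bp steps from the mean position of the 48 h H3K27Ac tags, for windows that were unmarked at 0 h and reached H3K27Ac of at least 3 by 3 h (red), by 12 h (orange) or by 48 h (blue). Bars are the counting error (1 SD). C/EBP density is highest in the centre of the red windows, at 0.273 and 0.260 matches per kb, while AP-1 density in the centre is highest in the blue windows, at 0.649 and 0.653 matches per kb.

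The C/EBP letters were also concentrated in the middle of the members. Within 300 bp on either side of the mean position of the 48 h H3K27Ac tags there were 0.273 and 0.260 matches per kb, against 0.143 and 0.109 in the outermost 300 bp steps. The later sets were also denser in the centre than at the edges, at lower central densities. The 12 h set held 0.188 and 0.194 matches per kb in the central steps and 0.131 and 0.115 in the outermost. The 48 h set held 0.129 and 0.146 in the central steps and 0.102 and 0.0866 in the outermost. AP-1 letters (TGANTCA), bound by the Fos, Jun and Batf families, were not ordered in that way by share, and their central density ran the other way. They were in 68.1% of members, 67.6% of the 12 h set and 71.9% of the 48 h set, their density over whole windows was 0.370 per kb in members and 0.318 per kb in all windows, and their central density was 0.399 and 0.453 per kb in members and 0.649 and 0.653 per kb in the 48 h set. PU.1 letters (GAGGAAGT), bound by the Ets factor of myeloid and B cells, were in 18.4% of members (exact 95% interval 15.8 to 21.3%), 24.8% of the 12 h set, 20.5% of the 48 h set and 16.7% of all windows. The hybrid TTGCATCA, to which a C/EBP and an ATF subunit bind together, was in 10.2% of members and 9.13% of all windows. Shares for RUNX (TGTGGTTN) were 56.7% and 51.3%, for NF-kB (GGGANTTCC) 8.06% and 7.47%, for EBF1 (CCCNNGGGA) 27.3% and 23.7% and for ISRE (GAAANNGAA) 70.8% and 69.5%. The E box CAGCTG was in 75.1% and 64.5%, and the CTCF core AGGGGGCGC in 0.378% and 0.597%. Each of these shares in members was nearer to that of all windows, in percentage points, than the C/EBP share was. Between the sets ISRE letters also differed, at 63.9% in the 12 h set and 65.3% in the 48 h set. Members had a median GC content of 42.8% and 8.33 CpG per kb, against 41.3% and 7.0 in all windows. GC was 44.7% in the 12 h set and 43.7% in the 48 h set. Differences of a few percentage points, from all windows or between the sets, thus stand beside a difference in base composition. Members that held C/EBP letters had a median H3K27Ac of 4.99 at 3 h and 13.7 at 24 h, and members without had 4.32 and 11.1.

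By position, 381 members (48.0%) had their centre in an intron, 278 (35.0%) between genes, 112 (14.1%) within 2500 bp of an annotated start and 23 (2.90%) in an exon. The shares among all windows were 33.1%, 55.5%, 9.32% and 2.01%. The median distance to the nearest protein-coding start was 16.8 kb in members and 49.7 kb in all windows, and it was 14.4 kb in the 12 h set and 15.2 kb in the 48 h set. Members had their centre between genes in 35.0%, against 29.3% and 28.5% of those 2 later sets, and in an exon in 2.90%, against 5.49% and 4.79%. They were next to a window with H3K27Ac of at least 3 at 0 h in 147 cases (18.5%), against 13.8% of the 12 h set, 10.3% of the 48 h set, and 2.36% of the windows that passed the limits at 0 h and stayed below 3 at 48 h. Adjacent members were joined into 674 loci: 574 were single windows, 83 had 2, 14 had 3 and 3 had 4. The 3 loci of 4 windows each spanned 12 kb, at chr6:21903001-21915000 nearest Ing3, at chr19:46971001-46983000 nearest Nt5c2 and at chr7:20277001-20289000 nearest Apoc1, and their highest H3K27Ac at 3 h was 17.1, 16.6 and 15.2. Among loci of 3 windows, those nearest Runx1 and Dhx8 were highest, at 22.7 and 22.1.

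H3K27Ac itself was measured at 2 times that the rule did not use. At 12 h, 730 of 794 members (91.9%) had H3K27Ac of at least 3, where 5.30% of all windows did, and at 24 h 740 (93.2%) did, where 5.69% of all windows did. These readings share their antibody and cell line with the ones that chose the members, and members were also required to be at 3 or more at 48 h. The median level was 9.02 at 12 h (quartiles 5.30 and 15.5) and 12.0 at 24 h (quartiles 6.19 and 22.6), beside the selected medians of 0.657 at 0 h, 4.51 at 3 h and 11 at 48 h. H3K27Ac was higher at 12 h than at 3 h in 629 members and at least 2-fold higher at 24 h than at 3 h in 453. The highest of the 4 induced times was 48 h in 321 members, 24 h in 298, 12 h in 105 and 3 h in 70. Since the values at 3 and 48 h chose the members, these counts are a description and not evidence of a course. The H3K27Ac libraries also differed in background. The median of all windows was 0.332 at 3 h, 0.255 at 12 h and 0.142 at 24 h. When libraries were scaled to background windows, those below 1 at all times of the mark, the 24 h median of members became 22.7. The size of a difference between times thus depends on the scaling.

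**Figure D2:**
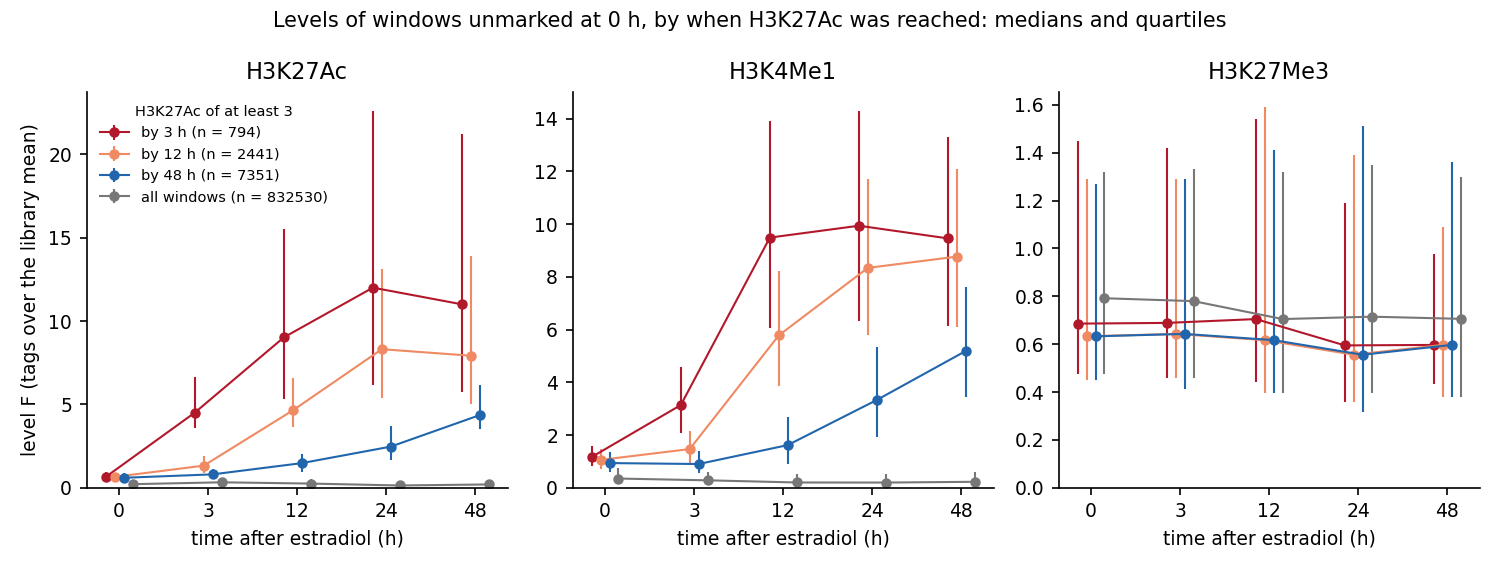
Median level F (points) and quartiles (bars) of H3K27Ac, H3K4Me1 and H3K27Me3 at 5 times for windows unmarked at 0 h, by the time at which H3K27Ac reached 3, and for all windows. Each time is 1 library. In the members (red) the median of H3K27Ac is 4.51 at 3 h, a value of the rule, and 12.0 at 24 h. That of H3K4Me1 is 3.14 and 9.94, and that of H3K27Me3 stays between 0.595 and 0.705.

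H3K4Me1 was also gained at most members within the first 3 h. The members were chosen below 2 at 0 h, with a median of 1.17. At 3 h, 603 of 794 (75.9%, exact 95% interval 72.8 to 78.9%) were at 2 or more, against 10.3% of all windows, 28.4% of the 12 h set and 8.42% of the 48 h set. A further 173 members (21.8%) first reached 2 at 12 h, 10 at 24 h and 2 at 48 h, and 6 never did. At 12, 24 and 48 h the called shares were 97.7%, 98.4% and 98.2%, with 10.4%, 11.7% and 12.2% of all windows called. Median levels were 3.14 at 3 h, 9.49 at 12 h, 9.94 at 24 h and 9.46 at 48 h. The intervals of the last 3 over windows (8.98 to 10.0, 9.40 to 10.3 and 9.0 to 9.92) do not measure the spread between libraries. The order of the medians at 12 and 48 h changed with the settings. H3K4Me1 was highest at 12 h in 345 members, at 24 h in 203 and at 48 h in 240. The median H3K4Me1 at 12 h was near those at 24 and 48 h, while the median H3K27Ac was 9.02 at 12 h and 12.0 at 24 h. With H3K27Ac of at least 4 at 3 h, the difference of the H3K4Me1 medians, 48 h minus 12 h, was -1.32. Whether the level was the same from 12 h on cannot be told from 1 library per time.

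The members were also divided by their H3K27Ac at 3 h, a value of the rule, and the shares are a description. Where H3K27Ac at 3 h was from 3 to below 4, 188 of 305 members (61.6%) had H3K4Me1 of at least 2 at 3 h. The share was 80.2% of 248 members from 4 to below 6, 85.1% of 154 from 6 to below 10 and 97.7% of 87 at 10 or more. The median H3K4Me1 of these classes was 2.57, 3.14, 3.66 and 5.61 at 3 h, and their median H3K27Ac at 24 h 9.45, 12.2, 14.1 and 29.6. By H3K4Me1 at 0 h, which the rule capped at 2, 23 of 70 members (32.9%) that began below 0.5 and 216 of 238 (90.8%) that began at 1.5 or more were at 2 or more at 3 h, and the latter had little to gain to pass the call. The median H3K27Ac at 3 h of these groups was 4.51 and 4.56. Members that began lowest still had a median H3K4Me1 of 7.09 at 48 h, against 9.95 for those that began highest.

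**Figure D3:**
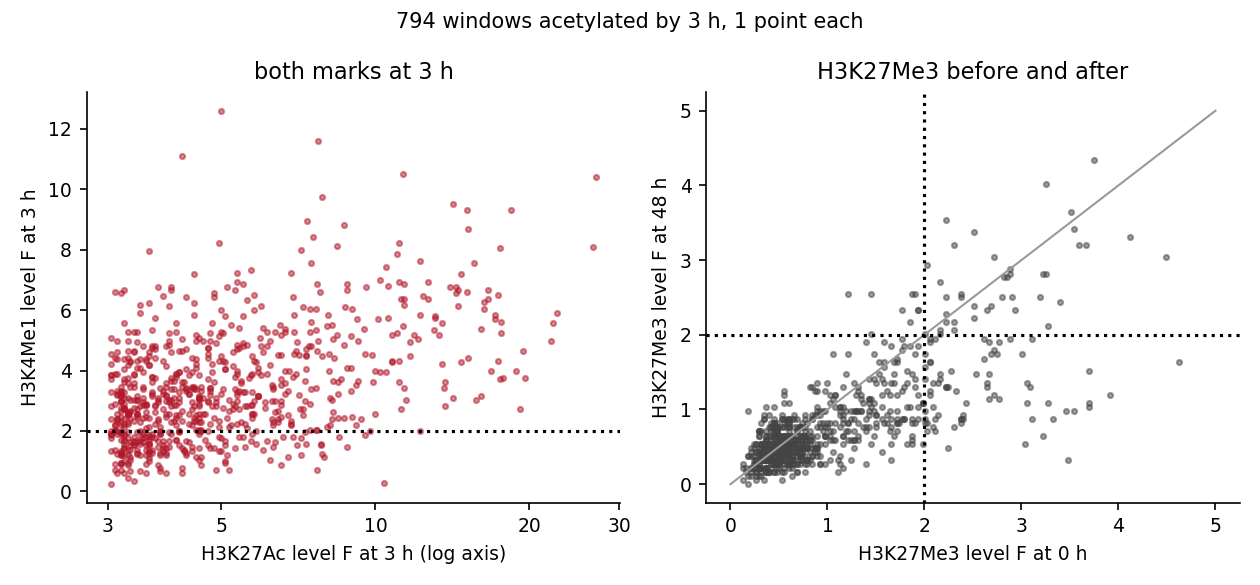
Left, H3K4Me1 against H3K27Ac at 3 h for the 794 members, with a dotted line at the call of 2. Right, H3K27Me3 at 48 h against 0 h, with dotted lines at 2 and a line of equality. Of 110 members at or above 2 for H3K27Me3 at 0 h, 70 lie below 2 at 48 h, and 9 lie in the opposite corner.

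The 3 members with the highest H3K4Me1 at 3 h were chosen by that value, against a member median of 3.14. A window 67.4 kb from Lif, which encodes a cytokine of the interleukin-6 family (chr11:4233001-4236000, intergenic), had H3K4Me1 levels of 1.94, 12.6, 29.6, 19.6 and 10.6 at 0, 3, 12, 24 and 48 h. Its H3K27Ac was 0.602, 4.99, 17.4, 38.3 and 55.9, so the 2 marks peaked at different times. In an intron of Ahcyl2 (chr6:29763001-29766000) H3K4Me1 went from 1.64 to 11.6 at 3 h and H3K27Ac from 0.602 to 7.74. In an intron of Fgr, a Src family kinase of myeloid cells (chr4:132537001-132540000), they went from 1.99 to 11.1 and from 0.328 to 4.18.

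H3K27Me3 was low at most members throughout. Its median was 0.686 at 0 h and 0.597 at 48 h, against 0.792 and 0.706 for all windows. At 0 h, 110 members (13.9%) were at 2 or more, where 11.0% of all windows were, a share close to the background. Over all 794 members, 130 (16.4%) were called at 12 h, 82 (10.3%) at 24 h and 49 (6.17%) at 48 h, while the shares of all windows were 12.0%, 12.6% and 13.3%. Of the 110 called at 0 h, 70 (63.6%, exact 95% interval 53.9 to 72.6%) were below 2 at 48 h, against 17.1% of all windows called at 0 h, 51.8% in the 12 h set and 15.6% in the 48 h set. The median level of the 110 was 2.57 at 0 h, 2.57 at 3 h, 2.91 at 12 h, 2.08 at 24 h and 1.63 at 48 h. This median was no lower at 3 and 12 h than at 0 h, and lower at 24 and 48 h. By the rule H3K27Ac was at 3 or more at 3 h. A higher median at 12 h was not particular to members. For windows called at 0 h it went from 2.51 to 3.35 in the 12 h set and from 2.48 to 3.0 in the 48 h set. In all windows called at 0 h it went from 2.51 to 2.69. Whether members had begun to lose H3K27Me3 by 12 h therefore cannot be read from their level alone. Relative to their surroundings they had changed by then. The mean H3K27Me3 over all 794 members was slightly higher in their centre than beside them at 0 h, and slightly lower at 12 h. Each time is 1 library, and this difference was not tested. Scaled to background windows, 8.68% of members were called at 0 h and the loss among all windows was 8.23%.

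The member with the highest H3K27Me3 at 0 h lay 10.2 kb upstream of Kdm2a, a histone demethylase (chr19:4407001-4410000), with 4.62, 3.99, 3.96, 2.06 and 1.63 at the 5 times. Its H3K27Ac was 0.328, 3.61, 14.1, 21.3 and 25.4. The next, near the transporter gene Abcc12 (chr8:89121001-89124000), fell from 4.49 to 3.04 and had H3K27Ac of 5.22 at 3 h and 3.96 at 48 h. A window near the start of F5, which encodes coagulation factor V (chr1:166083001-166086000), had H3K27Me3 of 4.12, 4.73, 5.46, 4.33 and 3.31 while its H3K27Ac went from 0.328 to 5.75, 12.9, 21.5 and 40.7. These 2 windows stayed above 2 for H3K27Me3 with H3K27Ac above 3, which bulk libraries cannot place in the same or in different cells.

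The 10 loci with the highest H3K27Ac at 3 h, chosen by that value, had 6 windows in introns, 3 near annotated starts and 1 between genes. All 10 had H3K4Me1 of at least 2 at 3 h. So did 97.7% of the 87 members with H3K27Ac of 10 or more at 3 h, and 10.3% of all windows. The highest was at chr9:7569001-7572000, 0.896 kb upstream of Mmp27, in a cluster of matrix metalloproteinase genes. It held 10 H3K27Ac tags at 0 h (exact Poisson 95% interval 4.80 to 18.4) and 569 at 3 h (523.2 to 617.7), which are levels of 0.547 and 27, followed by 33.7, 48.1 and 49.1 at 12, 24 and 48 h. Its H3K4Me1 was 1.99, 10.4, 24.4, 15.7 and 13.7. The intervals at 0 and 3 h lie far apart, as the choice of the window ensures, and the level at 24 h was higher again.

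In the same cluster, a window in an intron of Mmp8, neutrophil collagenase (chr9:7563001-7566000), had H3K27Ac of 0.766, 12.7, 28.3, 42.6 and 57.3. Upstream of Mmp12, macrophage elastase, 2 adjacent windows (chr9:7329001-7335000) had 0.711 and 0.219 at 0 h, 14.7 and 13.6 at 3 h, 30.1 and 25.3 at 12 h, 47.1 and 40.6 at 24 h and 37.9 and 37.4 at 48 h. Another Mmp12 window (chr9:7356001-7359000) rose to 7.31 at 3 h and was at 3.92, 3.8 and 4.52 thereafter. Windows of this cluster thus parted after 3 h, the time at which they were chosen.

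Rad51l1, a recombination repair gene, held the next locus in an intron (chr12:80457001-80460000), with H3K27Ac of 0.985, 26.6, 32.2, 39.1 and 35.3. The third lay 364 kb upstream of Runx1, a transcription factor of blood stem cells and myeloid cells (chr16:93189001-93192000), with 0.438, 22.7, 43.2, 61.9 and 31.9. Its H3K27Me3 fell over the same times, from 2.40 to 1.61, 1.54, 0.794 and 0.868. The adjacent window to the right had H3K27Ac of 0.657, 19.6, 28.0, 36.9 and 15.1 and H3K27Me3 of 2.43 at 0 h and 1.09 at 48 h. Both Runx1 windows were highest at 24 h.

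Vmp1, which encodes an autophagy membrane protein, had a window near an annotated start (chr11:86415001-86418000) at 0.930, 22.2, 36.7, 52.9 and 58.9. Dhx8, a splicing helicase, had an intronic window (chr11:101619001-101622000) at 1.26, 22.1, 48.9, 69.7 and 70.4. Nsmce2, a SUMO ligase of a chromosome maintenance complex, had an intronic window (chr15:59313001-59316000) at 1.15, 18.4, 25.6, 35.7 and 37.1. These 3 were highest at 48 h, as was the Mmp27 window.

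Another 3 of the 10 were highest at 3 h. In an intron of Cep192, a centrosome gene (chr18:68016001-68019000), H3K27Ac was 0.985, 19.4, 6.88, 5.98 and 8.68. In an intron of Fabp12, a fatty acid binding protein gene (chr3:10287001-10290000), it was 1.48, 19.2, 11.5, 13.5 and 3.15, and in the window upstream of Vcan, which encodes the matrix proteoglycan versican (chr13:89904001-89907000), 1.09, 17.8, 8.15, 5.84 and 4.16. H3K4Me1 was highest at 12 h in each of them, at 8.02, 9.49 and 14.4. These 3 are grouped by having their highest H3K27Ac at 3 h, so its lower level afterwards follows from the grouping. Over all 794 members, H3K4Me1 was highest at 3 h in 6. The eighth, near the start of the retinal reductase gene Dhrs3 (chr4:144483001-144486000), had H3K27Ac of 1.42, 18.8, 22.2, 30.7 and 13.6 and little H3K4Me1, at 1.94, 3.99, 3.4, 1.47 and 1.83.

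**Figure D4:**
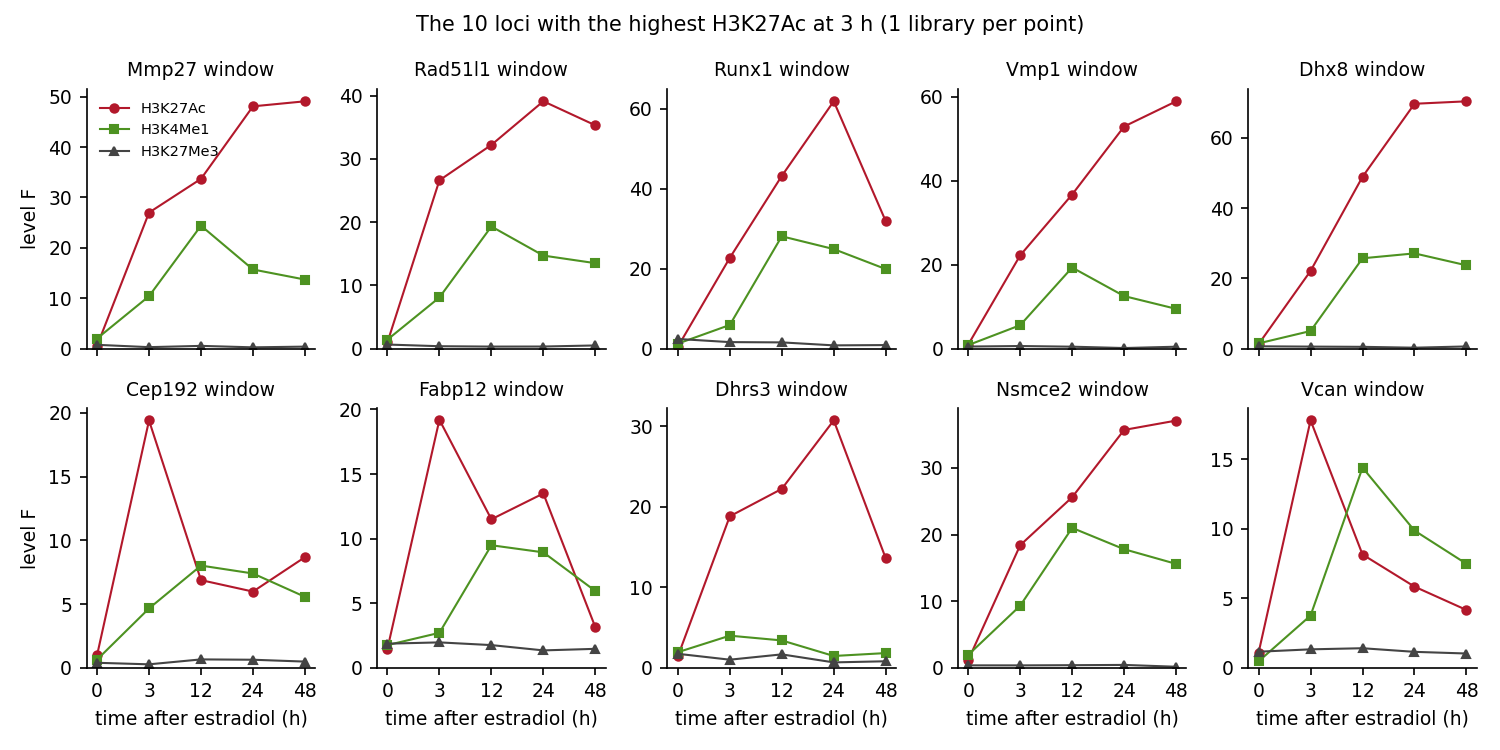
Level F of H3K27Ac (red), H3K4Me1 (green) and H3K27Me3 (grey) at 5 times in the 10 loci with the highest H3K27Ac at 3 h, named by the nearest protein-coding start. Each point is 1 library. The Cep192, Fabp12 and Vcan windows are highest in H3K27Ac at 3 h, at 19.4, 19.2 and 17.8, and the others at 24 or 48 h.

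Not all members kept the acetylation of 3 h at the times between. Below 3 at 12 h, 24 h or both were 79 members, of which 39 were below at both, 25 at 12 h only and 15 at 24 h only. The 39 had median H3K27Ac of 3.61 at 3 h, 1.83 at 12 h, 2.23 at 24 h and 4.26 at 48 h, so they lay nearer the limits of the rule than the 715 others, whose medians were 4.65, 9.94, 13.6 and 12.2. The dip of the 39 in H3K27Ac is fixed by the rule and by this grouping. H3K4Me1 from 3 to 48 h entered neither. It was at 2.57, 2.54, 3.20 and 3.89 in the 39, against 3.28, 10.2, 10.5 and 10.1 in the 715. H3K27Me3 was at 2 or more in 6 of the 39 at 0 h and 8 (20.5%) at 48 h. Of the 715, 99 were at 2 or more at 0 h and 37 (5.17%) at 48 h. The shares of all windows were 11.0% at 0 h and 13.3% at 48 h. Counts of 6 and 8 in single libraries are too small to be read as a course. C/EBP letters were in 12 of the 39 (30.8%), in 38.9% of the 715 and in 25.1% of all windows.

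The clearest dip was in a locus of 3 windows, 732 kb from Gm597 at its left end (chr1:28104001-28113000, intergenic). The first window held 14 H3K27Ac tags at 0 h, 220 at 3 h, 18 at 12 h, 119 at 24 h and 260 at 48 h, which are levels of 0.766, 10.4, 0.917, 5.65 and 13.2. H3K4Me1 there was 0.117, 0.285, 0.863, 2.13 and 3.81, so at 3 h it was acetylated with almost no H3K4Me1. The other 2 windows of the locus had H3K27Ac of 3.04 and 7.69 at 3 h and 0.408 and 1.38 at 12 h. A window upstream of Trib2, which encodes a pseudokinase known to lower C/EBPα protein (chr12:15837001-15840000), was at 5.27, 0.611, 1.04 and 4.62 from 3 to 48 h. A window 97.2 kb from Ptgs2, the inducible prostaglandin synthase (chr1:152043001-152046000), was at 4.37, 0.51, 0.95 and 5.28. With 1 library per time, a dip at 12 h cannot be told apart from a difference between the libraries.

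At the other end, 3 members rose most from 3 to 24 h. A window at chr5:53775001-53778000, 108 kb from the gene 1810013D10Rik, went from 3.23 to 54.3, a ratio of 16.8. Windows near Pgd (chr4:148545001-148548000), an enzyme of the pentose phosphate pathway, and Plekhg1 (chr10:6648001-6651000) went from 3.75 to 51.9 and from 4.46 to 61.2. From 3 to 12 h the largest ratio was 9.67, in an exon of D6Wsu116e (chr6:116175001-116178000), from 3.51 to 34.0. At 3 h these windows lay at or below the members' median of 4.51.

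The nearest protein-coding starts to the 794 members belonged to 569 genes, 2.55% of the 22350 in the annotation, and 48 genes had 3 or more members. The gene lists used below were drawn up with earlier results of these data known, a gene with wide intergenic space is more often the nearest, and the counts are descriptions. Among lysosomal, granule and oxidase genes 8 of 32 (25%) were nearest to a member, among cytokines and chemokines 7 of 30 (23.3%), among signalling feedback inhibitors 6 of 27 (22.2%) and among pattern recognition and phagocytic receptors 6 of 30. The count was 2 of 12 for AP-1 and ATF factors, 4 of 26 for myeloid cytokine receptors, 2 of 19 for myeloid transcription factors and 1 of 18 for T lineage genes. It was 0 of 26 for B lineage genes, 0 of 19 for leukocyte adhesion genes and integrins, 0 of 16 for erythroid and megakaryocyte genes and 0 of 15 for genes that every cell uses. At 2.55% of all genes a count of 0 in a list this short cannot be read as depletion, and no list was tested.

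Tlr2, the receptor for bacterial lipopeptides, was nearest to 6 members, the most of any gene together with Svil. They lay 16.8 to 61.8 kb upstream, and the strongest (chr3:83688001-83691000) had H3K27Ac of 0.164, 8.69, 28.9, 46.3 and 48.3 and H3K4Me1 of 0.645, 8.80, 22.6, 20.9 and 17.9. The other 5 were at 3.04 to 4.56 at 3 h. Cd14, the co-receptor for lipopolysaccharide, had 4 members 2.89 to 14.9 kb downstream. The window at chr18:36876001-36879000 was at 0.219, 11.1, 26.7, 38.4 and 38.5 and that at chr18:36870001-36873000 at 0.328, 9.17, 27, 38.5 and 54.1. At Sirpa, an inhibitory receptor of phagocytes, a window over an exon (chr2:129456001-129459000) was at 0.219, 8.41, 26.3, 42.9 and 40.0. Tlr4 had 2 adjacent intronic members, at 4.37 and 4.32 at 3 h and 26.7 and 22.3 at 24 h. The Tlr4 start itself was acetylated before induction, at 46.8 at 0 h and 40.0 at 3 h. In the receptor windows given with a 24 h level, H3K27Ac was higher at 24 h than at 3 h. The median of all members was too, at 12.0 against 4.51.

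Among cytokines, a window at the start of Il1b, the inflammatory cytokine interleukin-1β (chr2:129192001-129195000), was at 0.547, 5.37, 9.78, 17.7 and 31.9. Windows 10.6 and 25.6 kb upstream of the monocyte chemokine gene Ccl2 were at 5.75 and 5.70 at 3 h, 25.8 and 22.7 at 24 h and 14.9 and 11.5 at 48 h. In an intron of Il15, which encodes a lymphoid cytokine (chr8:84906001-84909000), H3K27Ac was 0.547, 7.41, 8.46, 22.8 and 19.7. The window upstream of Osm, which encodes oncostatin M (chr11:4128001-4131000), was at 6.55 at 3 h and 9.79 at 48 h, and its H3K4Me1 went from 1.47 to 23.6 at 12 h. Ccl2 and Il15 windows were thus highest at 24 h and the Il1b window at 48 h.

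From the cytokine receptor list, which also holds a secreted antagonist, Il13ra1, a subunit of the interleukin-13 receptor, had 3 windows, 32.6, 26.6 and 23.6 kb upstream, at 6.27, 5.37 and 4.13 at 3 h and 3.65, 6.14 and 4.16 at 48 h. Il1rn, which encodes the interleukin-1 receptor antagonist (chr2:24198001-24201000), was at 4.70 at 3 h and 39.7 at 48 h, and Il6st, the shared signalling chain gp130 (chr13:113232001-113235000), at 4.61 and 43.6. At 48 h the 3 Il13ra1 windows were below these 2.

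Among feedback inhibitors, Trib1, a relative of Trib2, had 4 members. The window 95.3 kb downstream (chr15:59574001-59577000) went from 5.70 at 3 h to 57.9 at 24 h, and those at 134 and 137 kb, which are adjacent, from 7.50 and 7.88 to 20.2 and 22.2. Tnfaip3, an inhibitor of NF-kB signalling, had a window 40.0 kb upstream (chr10:18774001-18777000) at 0.930, 8.45, 7.64, 10.4 and 11.3. The transcription factor lists were represented by Runx1, by Zeb2 windows 1250 and 1130 kb from its start, at 10.0 and 8.69 at 3 h and 6.60 and 3.05 at 48 h, by a window 164 kb from Jun at 3.13 at 3 h and 40.3 at 24 h, and by one 26.1 kb from Batf at 3.47 and 16.0. Cd247, a T cell receptor chain gene, was nearest to 1 member, within the neighbouring gene Pou2f1, at 3.85 at 3 h and 10.5 at 48 h.

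Among the genes with most members, chosen here after their values were seen, Ptgs2 had 5 windows. That at its start (chr1:151947001-151950000) was at 1.20, 6.36, 5.96, 8.60 and 12.0, and that 67.2 kb downstream (chr1:152013001-152016000) at 0.711, 16.3, 28.9, 42.6 and 46.3. Tet2, an enzyme that oxidises methylated cytosine, had 4, between 6.15 and 84.1 kb upstream. The farther of its strong windows (chr3:133287001-133290000) was at 0.164, 17.4, 35.6, 63.3 and 53.9, and the nearer (chr3:133212001-133215000) at 0.602, 15.7, 9.83, 13.7 and 3.3. Members that share a nearest gene thus ended at different levels.

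Acetylation at the starts of the nearest genes was read outside the member windows. The nearest gene was found from the starts of all its protein-coding transcripts. H3K27Ac was read at the 5' end of the whole gene, called its start here, which can be another site than the transcript start nearest the member. Of the 569 genes, 533 had this start at least 3000 bp from the centre of every member. H3K27Ac in the 3000 bp around these starts was at 3 or more at 0 h in 359 (67.4%), against 44.4% of all protein-coding starts away from members. A pseudocount of 0.25 was added to F before fold changes. At 3 h, 72 of 533 starts (13.5%) were at least 2-fold above 0 h, where 3.89% of all such starts were, and 5 (0.938%) were at least 2-fold below, where 1.77% of all were. At 12 h 83 (15.6%), at 24 h 103 (19.3%) and at 48 h 89 (16.7%) were higher, against 4.15%, 4.45% and 5.11% of all starts. Unlike the 3 h value, these set libraries with at most 1 tag at the heavy chain locus against the 0 h library with 523. At 24 h 22 starts (4.13%) were lower, against 8.09% of all, and at 48 h 50 (9.38%), against 9.17%. The median log2 change of the 533 was 0.38 at 3 h and 0.14 at 48 h, and of all starts 0.13 and -0.14. Most nearest starts therefore changed less than 2-fold, and those that gained were a larger share than among all starts. The starts were not matched for distance to a member or for H3K27Ac at 0 h, whose median was 10.6 at nearest starts and 0.875 at all. A nearest start can also lie within the acetylation beside members described below. The part of either in the larger share was not tested. Scaling to background windows moved the median of all starts at 3 h from 0.13 to -0.11 and that of the nearest starts to 0.08, and the shares higher at 3 h to 7.84% and 1.37%.

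The windows beside the members were read as well. In the windows directly on either side of members, which need not meet the rule, the median H3K27Ac was 0.657 at 0 h, 2.18 at 3 h, 3.72 at 12 h, 4.32 at 24 h and 4.82 at 48 h, and the median H3K4Me1 was 0.997, 1.57, 4.69, 5.74 and 5.87. In the third window on either side the H3K27Ac medians were 0.602, 1.09, 1.53, 1.52 and 1.98. In the 12 h set the adjacent windows had H3K27Ac of 0.997 at 3 h and 2.55 at 12 h. In loci of 2 or more windows the neighbours include other members, which the rule chose by their H3K27Ac, so these medians are a description and are not compared with those of the members.

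**Figure D5:**
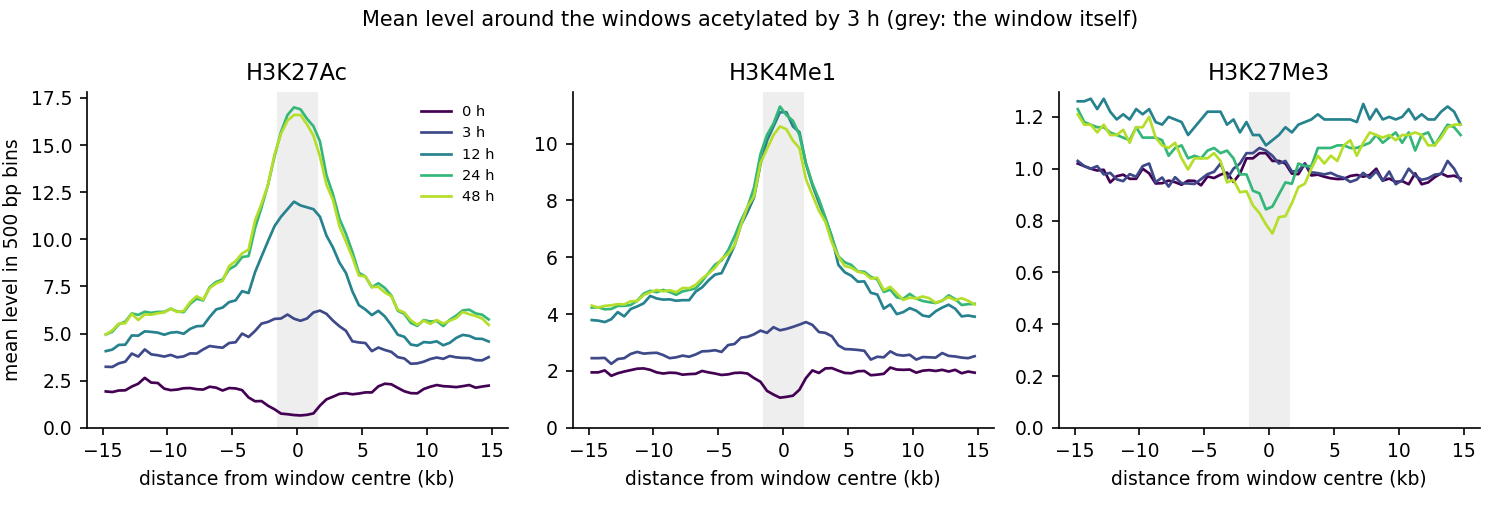
Mean level of the 3 marks in 500 bp bins from 15 kb left to 15 kb right of the centre of the 794 members, for 5 times. The grey band is the window itself, whose dip at 0 h and peaks at 3 and 48 h in H3K27Ac and dip at 0 h in H3K4Me1 follow from the rule. H3K4Me1 at 12, 24 and 48 h nearly coincides. H3K27Me3 is slightly raised in the centre at 0 and 3 h, dips slightly there at 12 h and dips more deeply at 24 and 48 h.

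The limits of the rule are steps of 1 tag. The members just inside the 3 h limit held 64 tags (3.04), with those near Gm597, Kif26b and Rapgef2 as 3 examples among others at that count, and the windows just outside 63 (2.99), for example near Tcfcp2l1, Rbms1 and Smox. At 48 h 60 tags (3.05) were inside, as near Pdss1, Zeb2 and Ewsr1, and 59 (2.99) outside, as near Sgk3, Pla2g4a and Col25a1. At 0 h the H3K27Ac limit lay between 27 tags (1.48; for example Asxl1, Fabp12, Psip1) and 28 (1.53; Fam174a, Sema6d, Rsbn1), and the H3K4Me1 limit between 34 (1.99; for example Uck2, Mnda, Cd93) and 35 (2.05; BC031781, 5730494N06Rik, Dnajc5b). Within 10% of the 3 h limit were 118 members and of the H3K4Me1 limit 102, so a part of the list is set by where the limits stand. Another 525 windows met the limits at 0 and 3 h and were below 3 at 48 h, and are not members.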

How the data were processed

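ChIP-seq tags of 15 libraries (3 marks, 5 times) were analysed as deposited. Per the paper's methods and the labels, the authors aligned Illumina reads to mm9 with Eland or Bowtie without mismatches and removed identical and non-unique tags; which aligner served which library is not given in the sources used here. The deposited files hold the chromosome, start and end of each 36 bp tag, without strand, count or score. The deposited H3K4Me1 libraries of 0 and 48 h still held positions with more than 2 tags (up to 205 and 135), so repeated positions were counted once, at the middle of the tag. The labels give 100 nM β-estradiol, whereas the methods text of the study gives the dose in micromolar, which is far higher. The conflict was not resolved, and the labels' value is printed.

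Windows, levels and members were computed as in the report with Python 3.11.15, numpy, pandas, scipy and pysam on the NCBIM37 (mm9) genome and GENCODE vM1 annotation. Calls were F of at least 3 for H3K27Ac and at least 2 for H3K4Me1 and H3K27Me3. Members and lists were chosen with earlier results of these data known. Without replicates no test was made, and windows are not replicates. Share intervals are exact binomial, tag intervals exact Poisson, and median intervals order statistics (95%), all for counting or sampling of windows only, and PCR copies at other positions are not removed. On simulated Poisson counts, 200 of 200 planted members were found, but all were planted well inside the limits. Recovery of windows near the limits was not tested. Named windows are the 10 loci with the highest 3 h H3K27Ac, the largest loci, up to 4 members per gene list, the extremes of each mark and 3 windows on each side of each limit. Others, among them windows of Tlr4, Il1b, Il13ra1, Ptgs2 and Tet2, were chosen after their values were seen. Sequences are from the mm9 reference, and those of chromosome 18 are not reported here. The RefSeq tables of another build were not used.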

Additional observations from a re-analysis of the deposited data

How the results depend on the processing

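All 9 alternatives were planned, and in 75 of the 90 recomputed values of the main results the value stayed within its interval (counts within 1.5 times). Of the other values, 186 stayed, 27 moved and 3 turned sign. Part of the 186 could not change. Other limits of the rule cannot alter the shares of all windows. Dropping members near start sites, or keeping 1 member per locus, left the 12 h set, the 48 h set and all windows as they were. Those sets were therefore never reduced to 1 window per locus. Differences of medians and median log2 changes had no interval and counted as staying where the sign held. The difference of the H3K27Ac medians, 24 h minus 12 h, counted so although it went from 3.0 to 13.09 when scaled to background windows. With H3K27Ac of at least 4 at 3 h there were 489 members, of which 94.9% and 95.1% had H3K27Ac of at least 3 at 12 and 24 h, 84.9% H3K4Me1 of at least 2 at 3 h, and 42.7% the C/EBP letters. With H3K4Me1 below 1 at 0 h there were 313 members, of which 58.8% were called for H3K4Me1 at 3 h (12.9% in the 12 h set), and 18.8% and 21.8% of the nearest starts were 2-fold higher at 3 and 48 h. With H3K27Ac below 1 at 0 h, 16.8% were called for H3K27Me3 at 0 h. With 1 window per locus, 79.2% were called for H3K4Me1 at 3 h. Scaled to background windows, 79.4% were called for H3K4Me1 at 3 h, 99.3% for H3K27Ac at 24 h and 8.68% for H3K27Me3 at 0 h, 7.84% of nearest starts were higher at 3 h, and the median log2 change of all starts at 3 h turned to -0.11. The cause was not tested. The difference of the H3K4Me1 medians, 48 h minus 12 h, was -0.03 and turned to 0.07 with H3K4Me1 below 1 at 0 h and to 0.20 without windows near start sites. Counting all tags, thinning libraries to the smallest tag total of their mark (marks still differed in depth) and shifting the windows left the number of members within 758 to 812. No paired analysis was possible because no group held a replicate. A level of 0.657 for H3K27Ac at 0 h is 12 tags, so levels at 0 h are coarse.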
